A study of Mus musculus with 5 samples.

Results

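The nuclear genes named for proteins of the mitochondrial ribosome were followed in ribosome-bound RNA from the midbrain of mice with and without deletion of Esrrg. This is the gene for the nuclear receptor ERRγ. A protein-coding gene belonged to the set when its symbol began with Mrpl or Mrps and a digit, without regard to its counts. Mrpl names the large subunit and Mrps the small subunit. Membership went by symbol, not by evidence that each protein is part of the ribosome. This gave 78 genes, 49 Mrpl and 29 Mrps, among the 53700 gene IDs of the count table. All but Mrpl53, which had no counts in any library, entered the test, so 77 genes had a fold change and an adjusted p. The RNA came from C57BL/6 mice aged 4 months, in 3 Esrrg WT libraries (L10a;Esrrg WT, replicates 2, 3 and 4) and 2 Esrrg Flox libraries (L10a;Esrrg Flox, replicates 2 and 4). Every mouse carried the Cre-dependent EGFP-L10a transgene, which tags a protein of the cytosolic ribosome, and every mouse received AAV:ThCre, a virus in which the tyrosine hydroxylase promoter drives Cre. Cre also excises exon 2 of the floxed Esrrg alleles in Flox mice, and tissue was taken 1 month later. Tagged ribosomes were pulled down with their mRNAs (BAC-TRAP) from pooled midbrains, so a replicate is a pool of animals and the p-values measure the spread between these pools. Both Cre-driven changes depend on injection and on Th promoter activity, and the pulldown enriches RNA of the tagged cells without isolating it.

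Mitochondria carry their own ribosome, the mitoribosome, which makes the few subunits of the electron transport chain and the ATP synthase that are encoded in mitochondrial DNA. Its rRNAs are transcribed from mitochondrial DNA, whereas all of its proteins are translated in the cytosol from nuclear mRNAs and imported. Many of these proteins descend from those of the bacterial ribosome, and the others were added during the evolution of mitochondria. Their mRNAs are mostly short, as are those of the cytosolic ribosomal proteins, which served as the contrast. ERRγ and its relatives are known as activators of nuclear genes for mitochondrial proteins, so the comparison asks whether the mRNAs of this machinery on ribosomes differed after the deletion.

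The libraries held between 20635855 and 23105058 counts assigned to genes. Esrrg itself had 1762.6, 1642.7 and 1725.6 normalized counts in WT and 1504.4 and 1170.1 in Flox, lower in both Flox libraries than in any WT library, with a log2 fold change of -0.35 (SE 0.13) and an adjusted p of 0.0753. With Flox replicate 4 left out it was -0.19 (adjusted p = 0.901), and with Flox replicate 2 left out it was -0.55 and passed the test (adjusted p = 0.00582). Gene-level counts span all exons and do not measure the removed exon. All 11 dopaminergic markers examined had counts in every library, and their summed level was 51078 to 60871 in WT and 52075 to 54810 in Flox. Their median log2 fold change was -0.15, with 9 of the 11 below 0, and 1 (Ret) fell while 0 rose. Markers of other cells were also present. The 12 microglial markers, none of them at 0, summed to between 1886.0 and 3676.8 in WT, to 6577.5 in Flox replicate 2 and to 14702.9 in Flox replicate 4, and 10 of the 12 rose. The 8 endothelial markers, none at 0, summed to between 127.8 and 288.4 in WT and to 299.7 and 770.4 in Flox, and 3 of the 8 rose. The 6 GABAergic markers, none at 0, summed to between 44259 and 45031 in WT and to 47932 and 50182 in Flox, and 2 of them rose (Calb2 and Sst) and 1 fell (Gad2). The sums of astrocyte and oligodendrocyte markers overlapped between the groups, and none of these markers passed the DESeq2 test (1 astrocyte marker was higher at an unadjusted p under 0.05). Flox replicate 4 also stood apart in both mitochondrial rRNAs. Its 4702.2 normalized counts of mt-Rnr1 compared with 1160.5 in Flox replicate 2 and 734.0 to 821.8 in WT, and its 5562.1 counts of mt-Rnr2 with 1447.7 and with 1025.1 to 1115.9. Neither rRNA passed the test (adjusted p = 0.0714 and 0.102), and both were looked at after their values were seen. The part of these differences between libraries in the results below was not tested. In bulk RNA, fewer cells of a type and less RNA per cell cannot be told apart.

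Most mitoribosomal protein genes differed little between the groups. The median log2 fold change, Flox against WT, over the 77 genes was 0.11 (quartiles -0.09 and 0.25), against -0.0063 over the 15724 genes tested. A fold change above 0 was found in 50 genes and below 0 in 27, and over all genes tested 49.1% were above 0. By the DESeq2 test with adjusted p under 0.05, 10 genes rose and 1 fell, and 8.25% of all genes tested were called in either direction. The 10 genes were 13% of those measured, against 4.20% of all genes called higher, and the gene that fell was 1.30%, against 4.05% called lower. Among genes with a mean of at least 100 normalized counts, a level that all 77 measured members reached, 4.67% were called higher and 5.29% lower. At an unadjusted p under 0.05, 21 members were higher and 8 lower (9.74% and 10.6% of all genes). With a fold of at least 1.5 as well, Mrps18c alone was called (1.77% of all genes were called higher and 1.41% lower by that rule). That count rested on single libraries, with 7 members without Flox replicate 2 (6.10% of all genes in either direction), 0 without Flox replicate 4 (0.449%) and likewise 0 without WT replicate 2 (1.67%). The genes that rose were Mrps18c, Mrps6, Mrpl14, Mrpl11, Mrpl41, Mrpl52, Mrpl23, Mrps12, Mrpl20 and Mrpl43, and the gene that fell was Mrps34.

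**Figure D1:**
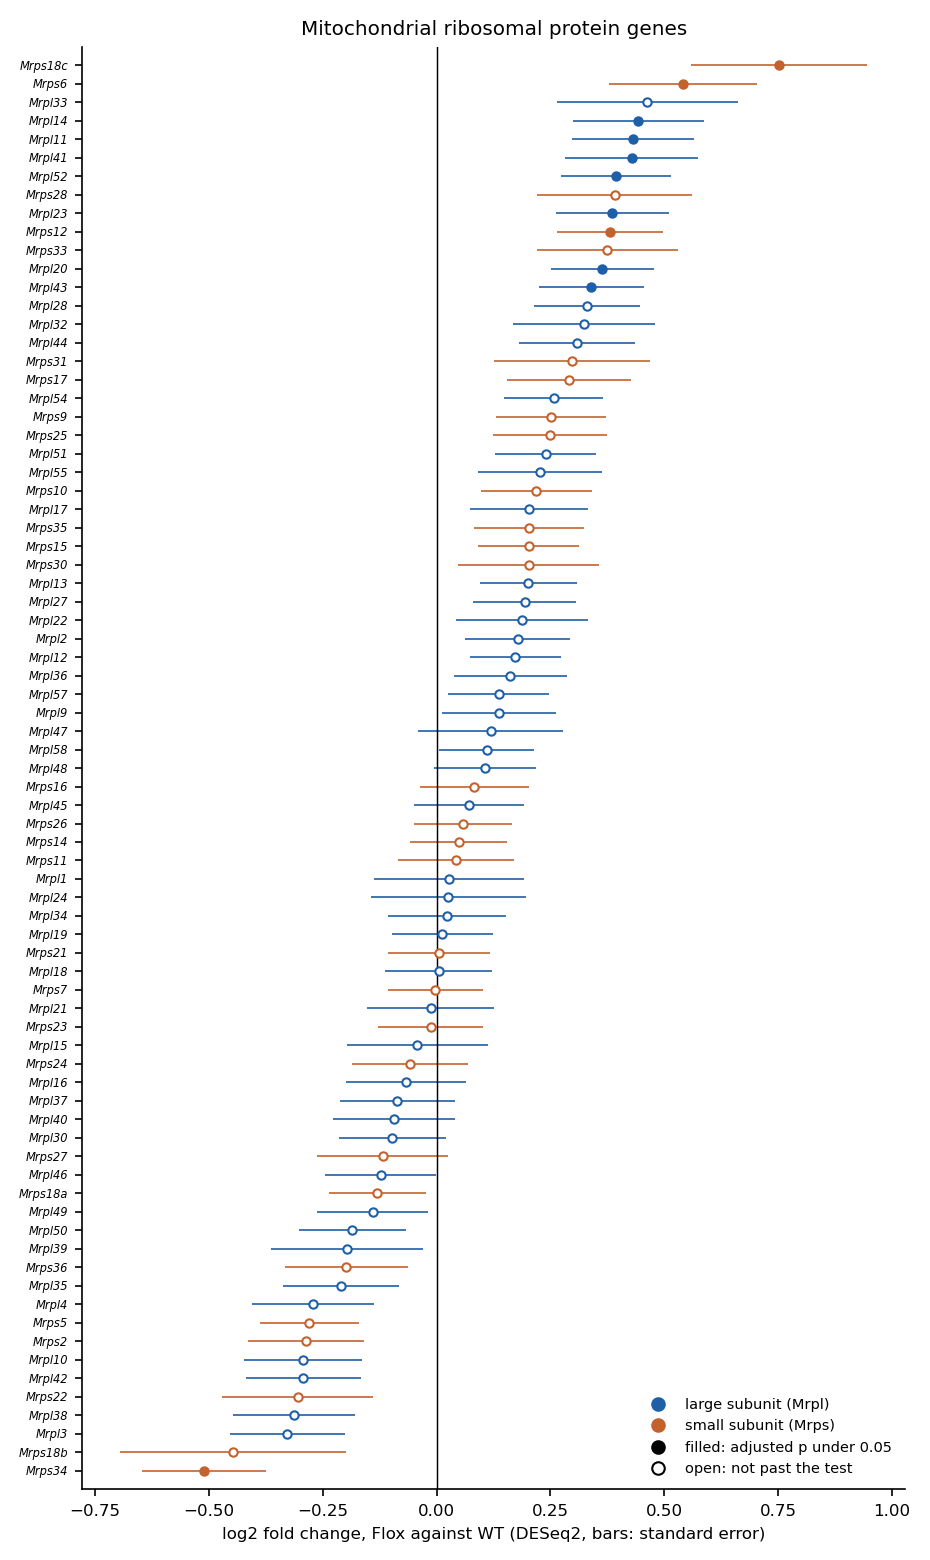
Log2 fold change (Flox against WT, DESeq2) of the 77 mitoribosomal protein genes with counts, each row a gene, with bars of 1 standard error, coloured by symbol and filled where the adjusted p was under 0.05. The values run from -0.51 for Mrps34 to 0.75 for Mrps18c, and 11 genes have filled symbols.

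This split depended on the fit. After the trend of log counts on transcript length was removed in each library, 1 gene was higher (Mrpl11) and 6 were lower (Mrpl38, Mrpl4, Mrpl42, Mrps18a, Mrps34 and Mrps36), with 3.24% and 3.09% of all genes called, and with coding length in place of transcript length it was 1 (Mrps18c) and 3 (Mrpl42, Mrps34 and Mrps36), with 3.57% and 3.54% of all genes. No gene of the set passed in the edgeR quasi-likelihood test (1.42% of all genes called, 22 members higher and 9 lower at an unadjusted p under 0.05), in DESeq2 without Flox replicate 4 (0.674%, 2 and 1), or without WT replicate 2 (2.16%, 12 and 7). Over all 14 other settings, the share of all genes called ran from 0.674% to 10.8%, the last without Flox replicate 2.

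**Figure D2:**
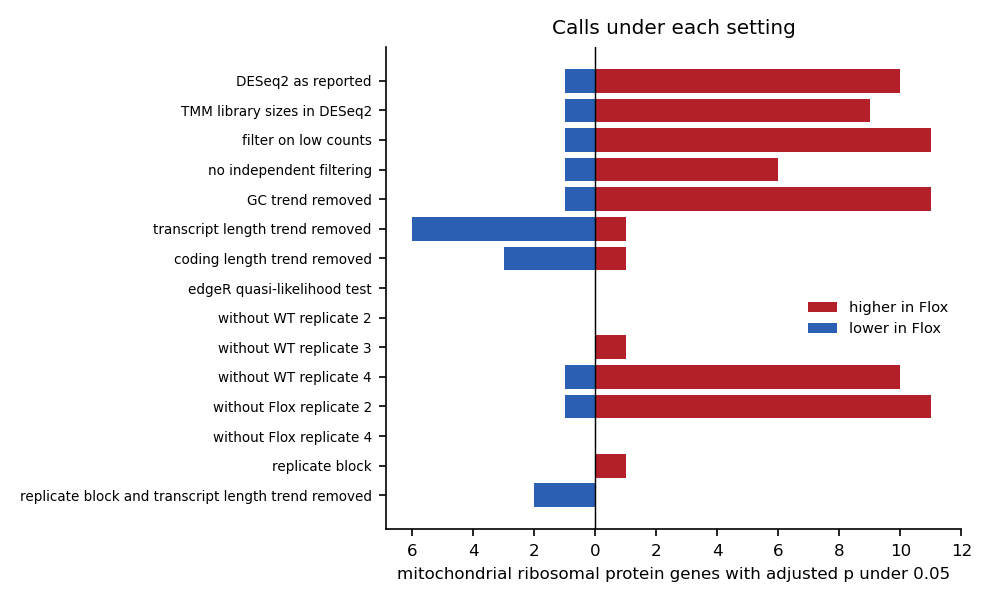
Number of mitoribosomal protein genes with an adjusted p under 0.05, higher (right) and lower (left) in Flox, in the reported fit and in 14 other settings. The reported 10 and 1 become 1 and 6 after removal of the transcript length trend, and no gene is called by edgeR, without WT replicate 2 or without Flox replicate 4.

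Single genes and the summed set differed in how far the groups overlapped. Both Flox libraries lay above all WT libraries in 30 of the 77 genes (19.9% of all genes tested, 19.5% of those with a mean of at least 100) and below all of them in 14 (22.5% and 26.1%), and the groups overlapped in the other genes. The set took 0.463%, 0.480% and 0.507% of the assigned counts in WT replicates 2, 3 and 4 and 0.496% and 0.521% in Flox replicates 2 and 4. WT replicate 4 thus lay above Flox replicate 2, and the groups overlapped. The median log2 difference of the genes from the WT mean was -0.067, -0.037 and 0.097 in the WT libraries and 0.047 and 0.16 in the Flox libraries. WT replicate 4 was above the WT mean in 73 of the 77 genes, compared with 44 for Flox replicate 2 and 52 for Flox replicate 4. That mean includes WT replicate 4 itself, so the counts of WT and Flox libraries are not like for like. The summed counts of Mrpl over those of Mrps genes had a ratio of 1.907, 1.901 and 2.004 in WT and 1.940 and 1.964 in Flox. The groups thus overlapped here too. This ratio goes by symbol and is not a strict ratio of the subunits, since the Mrps18a protein sits in the large subunit.

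Mrps18c (ENSMUSG00000016833.15, chromosome 5) had the highest fold change of the set. It encodes the small-subunit protein that corresponds to bacterial S18. It had 236.0, 323.0 and 291.1 normalized counts in the WT libraries and 416.9 and 538.8 in the Flox libraries, that is 283.4 ± 44.0 (SD, n = 3) and 477.9 ± 86.2 (SD, n = 2). Both Flox values were above all WT values. The log2 fold change was 0.75 (SE 0.19, adjusted p = 0.00413). Leaving out Flox replicate 4 gave 0.55, and leaving out Flox replicate 2 gave 0.93. In the reference annotation it shares 250 bases with the transcript model Gm43511 on the same strand, which had means of 1.4 counts in WT and 1.5 in Flox.

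Mammals have 3 genes related to bacterial S18, of which only Mrps18c passed the test. Mrps18b, whose protein also sits in the small subunit, had 133.8, 122.3 and 143.2 counts in WT and 101.8 and 93.4 in Flox, with a log2 fold change of -0.45 (SE 0.25, adjusted p = 0.306). Its groups did not overlap, but it did not pass the test. Mrps18a, whose protein sits in the large subunit despite its name, had 2052.3, 1990.2 and 2187.7 counts in WT and 1881.9 and 1913.7 in Flox (log2 fold change -0.13, SE 0.11, adjusted p = 0.558). Per kilobase of transcript, the order of the levels in WT was Mrps18a (2349.3 normalized counts per kb), Mrps18c (444.2) and Mrps18b (123.3). In Flox the order was the same, with 2146.8, 749.0 and 90.5. The differences between the fold changes of the paralogs were not tested.

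Mrps6 (ENSMUSG00000039680.11, chromosome 16), the counterpart of bacterial S6 and a partner of S18 in the small subunit, had 878.7, 937.5 and 940.6 normalized counts in WT and 1084.6 and 1592.6 in Flox. The groups did not overlap, and the Flox libraries were far apart. The log2 fold change was 0.54 (SE 0.16, adjusted p = 0.0178). With Flox replicate 4 left out it was 0.24, and with Flox replicate 2 left out it was 0.79. Mrps6 shares 159 bases with Slc5a3 on the same strand, which had a log2 fold change of 0.06. Mrps12, which lines the decoding centre of the small subunit, had 2513.8, 2589.4 and 2728.6 counts in WT and 3086.5 and 3714.0 in Flox, with a log2 fold change of 0.38 (SE 0.12, adjusted p = 0.0212). Both Flox libraries again exceeded every WT library.

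In contrast, Mrps34 (ENSMUSG00000038880.14, chromosome 17), a mitochondria-specific protein needed for a stable small subunit, fell. It had 996.7, 1002.8 and 1049.2 normalized counts in WT and 785.8 and 640.2 in Flox, that is 1016.2 ± 28.7 (SD, n = 3) and 713.0 ± 103.0 (SD, n = 2). The log2 fold change was -0.51 (SE 0.14, adjusted p = 0.00556), a level 29.8% lower. It was -0.37 without Flox replicate 4, -0.67 without Flox replicate 2 and -0.68 (adjusted p = 1.6e-04) after removal of the length trend. Mrps34 lies among other genes. It shares 763 bases with Nme3 on its own strand, a gene with no counts in any library. Reads in shared bases could be assigned to neither gene, so this 0 sets no upper limit on the level of Nme3. Mrps34 also shares 1309 bases with Mapk8ip3 on the other strand, whose log2 fold change was -0.22 (SE 0.12, adjusted p = 0.265). Because strand was not used in counting, reads of Mrps34 and of these neighbours are not fully separable.

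Genes with Mrpl symbols made up 7 of the 10 that rose, and 48 of the 77 measured. Mrpl11, which forms the base of the stalk where elongation factors bind, had 1588.8, 1590.7 and 1705.4 normalized counts in WT and 1911.7 and 2481.3 in Flox (log2 fold change 0.43, SE 0.13, adjusted p = 0.0229). With a representative transcript of 3045 bases, of which 576 are coding, it was the longest of the genes that rose. It was the gene called higher once the transcript length trend was removed (0.49, adjusted p = 0.00939). With the coding length trend removed it was not called (0.35, adjusted p = 0.0559). Mrpl14, a protein of the interface between the subunits, had 758.6, 848.9 and 812.8 counts in WT and 962.6 and 1231.7 in Flox (log2 fold change 0.44, SE 0.14, adjusted p = 0.0329). Mrpl23, a protein near the exit of the peptide tunnel, had 1228.4, 1237.1 and 1266.3 counts in WT and 1473.6 and 1778.5 in Flox (log2 fold change 0.39, SE 0.12, adjusted p = 0.0296). These 3 genes were higher in both Flox libraries than in any WT library, and Flox replicate 4 was the higher of the pair in each.

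Mrpl20, an rRNA-binding protein of the large subunit, was among the most abundant of the set. It had 2638.1, 2638.3 and 2891.9 normalized counts in WT and 3253.7 and 3756.8 in Flox (log2 fold change 0.36, SE 0.11, adjusted p = 0.0225). The other large-subunit genes that rose encode proteins without a bacterial counterpart. Mrpl41 had 2636.0, 2670.9 and 3321.4 counts in WT and 3382.4 and 4359.2 in Flox (log2 fold change 0.43, SE 0.15, adjusted p = 0.0435), and its WT replicate 4 lay just below Flox replicate 2. Mrpl52 had 1094.6, 1265.7 and 1196.2 counts in WT and 1497.6 and 1618.4 in Flox (log2 fold change 0.39, SE 0.12, adjusted p = 0.0204). Its transcript of 418 bases was the shortest of the set, and after removal of the length trend its log2 fold change was 0.06. Mrpl43 had 962.9, 943.6 and 992.5 counts in WT and 1179.7 and 1267.5 in Flox (log2 fold change 0.34, SE 0.12, adjusted p = 0.0447). It shares 507 bases with Twnk on the other strand, which had a log2 fold change of -0.12. In each of the 10 genes both Flox libraries lay above all WT libraries, so leaving out a library could hardly change the sign. All 10 genes kept a positive fold change without Flox replicate 4, from 0.23 for Mrpl11 to 0.55 for Mrps18c. The values that shrank by more than 1.5 times without it were those of Mrps6, Mrpl11, Mrpl41 (0.23), Mrpl14 (0.25), Mrpl23 and Mrps12 (0.24 each).

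**Figure D3:**
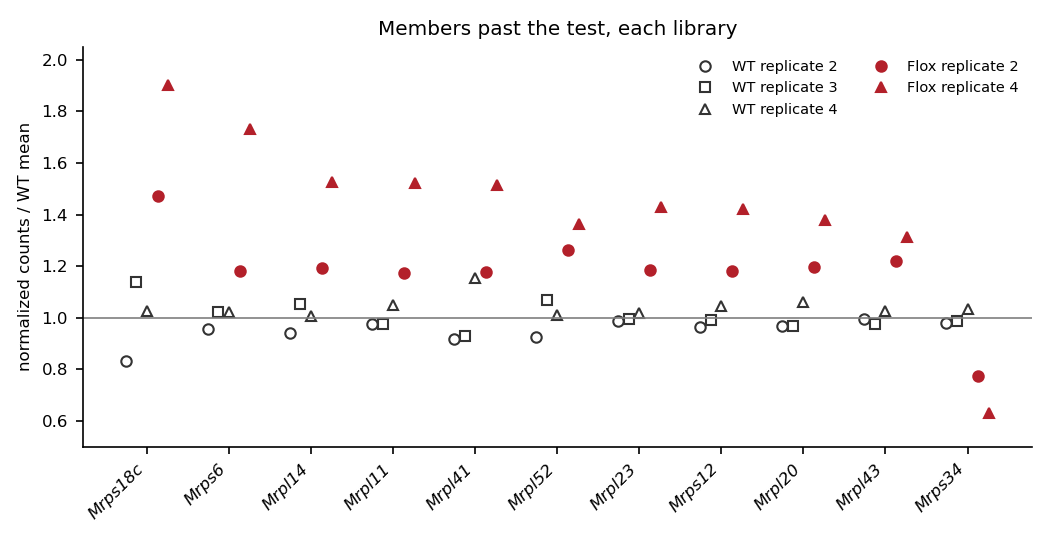
Normalized counts divided by the WT mean (vertical axis, no unit) in each library for the 10 genes that rose and the gene that fell, with open symbols for WT and filled symbols for Flox. For each gene both Flox libraries lie outside the WT libraries, and Flox replicate 4 is the more distant of the pair.

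Among the genes that missed the threshold, those with the largest differences lay on both sides of 0. Mrpl33, a large-subunit protein with a bacterial counterpart, had 182.3, 250.7 and 237.3 counts in WT and 311.2 and 305.2 in Flox (log2 fold change 0.46, SE 0.20, adjusted p = 0.139). Mrpl3, a protein near the peptidyl transferase centre, had 1393.8, 1455.2 and 1650.6 counts in WT and 1258.4 and 1131.3 in Flox (log2 fold change -0.33, SE 0.13, adjusted p = 0.0862). Mrpl38, a protein of the central protuberance, had 1359.1, 1285.0 and 1605.5 counts in WT and 1185.4 and 1095.5 in Flox (log2 fold change -0.31, SE 0.13, adjusted p = 0.139). In all of these the groups did not overlap. Closest to the threshold from outside, and chosen after its value was seen, was Mrpl28 with 2184.0, 2239.9 and 2464.4 counts in WT and 2666.7 and 3108.6 in Flox (log2 fold change 0.33, SE 0.12, adjusted p = 0.0559).

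Small-subunit genes below 0 without passing included Mrps5 (log2 fold change -0.28, SE 0.11, adjusted p = 0.0906), Mrps2 (-0.29, SE 0.13, adjusted p = 0.159) and Mrps22 (-0.31, SE 0.17, adjusted p = 0.289), also chosen after their values were seen. Mrps5 had 1604.6, 1596.9 and 1715.9 counts in WT and 1346.8 and 1354.0 in Flox, with no overlap and Flox libraries that lay close together. At the other end, Mrps21 (1713.1, 1926.0 and 1948.5 counts in WT, 1863.6 and 1874.9 in Flox), Mrpl18 (log2 fold change 0.0042) and Mrps7 (-0.0025) were nearly level. Both Flox values lay inside the WT range for Mrps21 and Mrpl18, and on either side of it for Mrps7. The sign for Mrps21 was negative with TMM library sizes, without WT replicate 2, without Flox replicate 4 and in each fit with a length trend removed. Mrpl53 was at 0 in all libraries. Its 695-base reference transcript lies wholly within another gene, Gm42688, so that reads there could be assigned to neither and the 0 sets no upper limit on its level.

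The set was divided by symbol (Mrpl or Mrps) and by origin. The shares of all genes called, for comparison, were 4.20% higher and 4.05% lower, or 9.74% and 10.6% at an unadjusted p under 0.05. Over the 48 measured Mrpl genes the median log2 fold change was 0.11, with 32 above 0, 7 that rose (14.6%) and 0 that fell (13 and 5 at an unadjusted p under 0.05). Over the 29 Mrps genes it was 0.06, with 18 above 0, 3 that rose (10.3%) and 1 that fell. Proteins with a bacterial counterpart, 43 genes, had a median of 0.14, with 31 above 0, 7 that rose (16.3%) and 0 that fell. The 34 measured genes without a listed counterpart had a median of 0.09, with 19 above 0, 3 that rose (8.82%) and 1 that fell. Of the Mrps18 paralogs, Mrps18c (log2 fold change 0.75) was listed with a counterpart. Mrps18a (-0.13) and Mrps18b (-0.45) were placed among those without one. The differences between these groups were not tested. The 32 measured genes that overlap another gene in the reference annotation had a median of 0.11, of which 4 rose (12.5%) and 1 fell. The 45 that overlap none had a median of 0.08, of which 6 rose (13.3%) and 0 fell.

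Levels within the set were compared per kilobase of the representative transcript. The highest over all libraries were Mrps21 (3816.6 normalized counts per kb in WT), Mrpl41 (3706.3), Mrpl20 (3563.9) and Mrps12 (2956.5), with Mrpl42 (3038.3) beside Mrps12 in WT. In Flox, the levels of the first 4 were 3830.5, 4988.1, 4588.0 and 3850.8, so that Mrpl41 and Mrpl20 stood above Mrps21, whose level was nearly that of WT. The levels of Mrps21, Mrpl41 and Mrpl20 in WT, and those of Mrps21 and Mrps12 in Flox, differed by less than the spread of the libraries. At the bottom stood Mrpl1, at 119.2 in WT and 121.5 in Flox, and Mrps18b.

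The upstream sequences of members are shown to set the genes with the largest increases and a gene near 0 beside known motifs of genes for mitochondrial proteins. RefSeq promoters (assembly GRCm38.p6, from 250 bases before to 50 after the start) were matched by symbol for 69 of the 78 genes, 75 promoters in all, and there was none for Mrps34. Only bases before the start are printed, 5′ to 3′ on the strand of the gene. Mrps18c (chr5:100798509-100798758, + strand), which rose most, holds the ETS-type GABPA motif, in capitals. Mrps6 (chr16:92058086-92058335, + strand), next in size, holds none of the motifs searched. Mrps21 (chr3:95871515-95871764, - strand), with a difference near 0, holds the nuclear receptor core motif on both strands and an NRF1 motif, in capitals, and a GABPA motif past the start that is not printed.
Mrps18c: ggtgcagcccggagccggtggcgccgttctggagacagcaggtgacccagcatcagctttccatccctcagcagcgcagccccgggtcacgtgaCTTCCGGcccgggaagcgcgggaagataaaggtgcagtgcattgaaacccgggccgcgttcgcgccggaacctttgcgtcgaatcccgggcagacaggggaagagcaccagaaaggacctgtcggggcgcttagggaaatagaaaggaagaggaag
Mrps6: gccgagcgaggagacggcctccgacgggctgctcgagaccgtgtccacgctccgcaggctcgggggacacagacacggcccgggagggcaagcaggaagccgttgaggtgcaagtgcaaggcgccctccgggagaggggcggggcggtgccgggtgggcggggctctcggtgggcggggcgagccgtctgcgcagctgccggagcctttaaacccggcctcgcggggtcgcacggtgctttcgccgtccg
Mrps21: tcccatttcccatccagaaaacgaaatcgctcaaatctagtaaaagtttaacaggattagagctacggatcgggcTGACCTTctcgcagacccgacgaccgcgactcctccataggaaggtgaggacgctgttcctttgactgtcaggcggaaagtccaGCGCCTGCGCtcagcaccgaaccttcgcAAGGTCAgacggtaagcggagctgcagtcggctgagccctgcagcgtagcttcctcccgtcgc

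The motifs, chosen after the expression values were seen, were searched on both strands in all 32851 RefSeq promoters. The estrogen-related receptor element TNAAGGTCA was in 0 of the 75 promoters of the set and in 1.28% of all promoters. Its core AAGGTCA, which is contained in it, was in 4 of the 75 (5.33%), and in 4.72% of all. These were the promoters of Mrps21, Mrps15, Mrpl36 and, past the start, Mrpl12. None of these 4 genes passed the test, with log2 fold changes of 0.005, 0.20, 0.16 and 0.17. The 60 bases around the core are shown in capitals for Mrps15 (chr4:126046777-126046836, + strand) and Mrpl36 (chr13:73330944-73331003, + strand, core on the other strand). The stretch of Mrpl36 also holds a YY1 motif.
Mrps15: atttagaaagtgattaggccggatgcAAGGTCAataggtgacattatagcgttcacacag
Mrpl36: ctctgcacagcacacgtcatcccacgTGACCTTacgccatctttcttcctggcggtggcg

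Motifs of other regulators known from genes of this kind were more frequent. The GABPA motif CCGGAAG was in 26 of the 75 promoters (34.7%) and in 8.86% of all, the NRF1 motif (GCGCA, any base, then GCGC) in 13 (17.3%) and in 4.60%, and the YY1 motif AAGATGGC in 12 (16%) and in 2.75%. Of the genes that rose, GABPA motifs were in the promoters of Mrps18c, Mrpl52, Mrpl43 and Mrps12, an NRF1 motif in that of Mrpl14 and a YY1 motif in that of Mrps12. A match is a run of letters, not a binding event, and the absence of one says only that these letters are not in the window.

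The cytosolic ribosomal protein genes, the contrast of the set, had a higher median. Over 79 genes the median log2 fold change was 0.40, 76 were above 0, and 51 of the 78 with an adjusted p rose while 0 fell (65.4%, against 4.20% of all genes called higher). At an unadjusted p under 0.05 there were 62 higher and 0 lower (9.74% and 10.6% of all genes), and by edgeR 31 were higher (0.884% of all genes). Examples were Rps21, with 7871.1, 8966.7 and 7358.6 normalized counts in WT and 13207.9 and 12968.2 in Flox (log2 fold change 0.70, SE 0.11), and Rpl41 (0.59, SE 0.10). Rpl10a, whose tagged form was used for the pulldown, had a log2 fold change of -0.08. Genes of this set have many near-identical pseudogenes, and reads aligned to more than 1 place were not counted, so their values are less certain. The Flox libraries both exceeded every WT library in 69 of the 79 genes, against 30 of 77 in the mitochondrial set and 19.9% of all genes. The cytosolic genes took 2.74% to 2.97% of counts in WT and 3.66% and 3.48% in Flox, without overlap, whereas the mitochondrial set overlapped. Removal of the length trend left a median of 0.20 with 20 genes higher for the cytosolic set, and a median of 0.06 for the mitochondrial set. No test of the difference between the sets was made.

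Transcript length was compared because both sets are short. The median reference transcript was 1316 bases in the mitochondrial set (coding part 588 bases), 878 in the cytosolic set (453) and 2903 over all genes tested (1389). In Flox, short mRNAs were higher in general. Among other protein-coding genes under 750 bases the median log2 fold change was 0.30, and 19.5% were called higher, while at 2500 bases and more it was -0.06. Mitoribosomal genes followed at the short end. The 11 genes under 750 bases had a median of 0.26, and 4 rose (36.4%). The 13 genes from 750 to 1000 bases had a median of 0.20, and 4 rose (30.8%) and 1 fell (7.69%). In that class other protein-coding genes had a median of 0.23, with 14.6% called higher and 0.99% lower. From 1000 to 1500 bases the median was 0.02 (22 genes) against 0.13 in other genes, and from 1500 to 2500 bases it was -0.13 (10 genes) against 0.02. The 21 genes of 2500 bases or more had a median of 0.11 against -0.06, and a median coding part of 600 bases. The cytosolic medians, from 0.29 to 0.48, were above those of both other groups in each class.

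**Figure D4:**
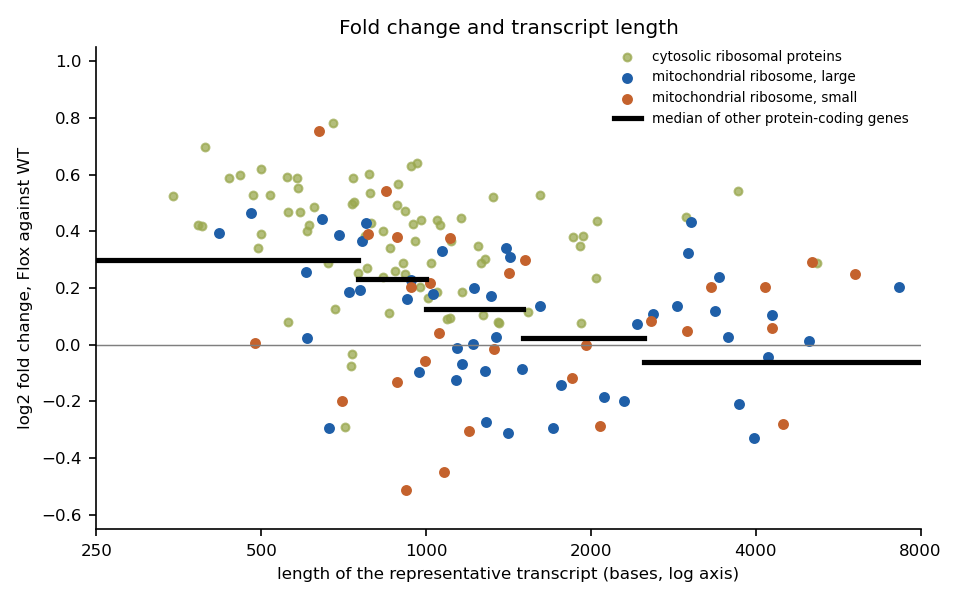
Log2 fold change (Flox against WT) against the length of the reference transcript in bases on a log axis, for mitoribosomal and cytosolic ribosomal protein genes, with black bars for the median of other protein-coding genes in 5 length classes. Mitoribosomal genes under 1000 bases lie around the bars (class medians 0.26 and 0.20, bars at 0.30 and 0.23), and cytosolic genes lie mostly above them.

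Across the 77 genes, as a description over genes that share libraries, log2 fold change and log2 transcript length had a Pearson r of -0.18 and a Spearman rho of -0.22. With coding length the values were -0.39 and -0.40, and over 14016 protein-coding genes they were -0.16 and -0.19. With GC content of the transcript they were -0.01 and 0.02. Of the 10 genes that rose, the coding parts ran from 363 bases in Mrpl52 to 576 in Mrpl11, whereas Mrpl3, Mrpl38 and Mrps5, whose fold changes were negative, have coding parts of 1044, 1140 and 1296 bases. Other short genes had negative values, such as Mrps34, which fell, with 654 coding bases, and Mrps36 and Mrpl42, which had log2 fold changes of -0.20 and -0.29 with 306 and 426 coding bases.

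The other genes of mitochondrial translation were 68 genes in 4 lists, and the median log2 fold change over the 67 with a value was -0.09. The medians of single lists lay on both sides of 0. Of the 67 genes, 24 were above 0, 1 rose (1.49%, against 4.20% of all genes) and 2 fell (2.99%, against 4.05%). Mitoribosomal proteins under other symbols were Aurkaip1, Gadd45gip1, Chchd1, Dap3 and Ptcd3. None passed the DESeq2 test (1 at an unadjusted p under 0.05), and the largest difference was that of Ptcd3, a small-subunit protein, with 507.8, 546.2 and 513.1 counts in WT and 482.2 and 394.7 in Flox (log2 fold change -0.25, SE 0.15, adjusted p = 0.372). Of 27 genes for ribosome assembly and rRNA modification, with a median of 0.07, only Rbfa passed.

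Rbfa, a factor that binds the rRNA of the small subunit during its assembly, had 310.8, 270.1 and 305.5 normalized counts in WT and 187.3 and 122.3 in Flox. Both Flox libraries were below all WT libraries. The log2 fold change was -0.93 (SE 0.22, adjusted p = 0.00154), a larger difference than that of any Mrpl or Mrps gene. It was -0.66 (adjusted p = 0.334) without Flox replicate 4 and -0.90 (adjusted p = 0.055) without WT replicate 2. The translation factors, 15 genes with counts and a median of -0.16, held 1 gene that rose and 1 that fell. These are partners: Tufm is the elongation factor that brings aminoacyl-tRNA to the ribosome, and Tsfm is its exchange factor, which releases the spent GDP from it. Tsfm had 1016.7, 984.4 and 1041.5 counts in WT and 1177.7 and 1596.5 in Flox (log2 fold change 0.45, SE 0.15, adjusted p = 0.0325), and without Flox replicate 4 the value was 0.21 (adjusted p = 0.889). Tufm had 1998.6, 1948.4 and 2169.4 counts in WT and 1668.6 and 1534.9 in Flox (-0.35, SE 0.11, adjusted p = 0.031), and it missed the threshold with any single library left out (adjusted p from 0.0541 to 0.632). Neither gene's groups overlapped, and the Flox libraries of Tsfm were far apart.

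The 20 mitochondrial tRNA synthetases, enzymes that load amino acids onto mitochondrial tRNAs, had the lowest median of the lists, -0.23, with 18 of 20 below 0. None passed the DESeq2 test (5 lower and 0 higher at an unadjusted p under 0.05, against 10.6% and 9.74% of all genes). The largest difference was that of Cars2, the cysteine enzyme, with 203.3, 194.6 and 245.0 counts in WT and 155.6 and 117.3 in Flox (log2 fold change -0.65, SE 0.23, adjusted p = 0.053). Their median transcript was 2868 bases, more than that of the mitoribosomal genes (1316). The calls in these lists depended on the fit, with 0 genes called higher and 4 lower after removal of the length trend, and 0 in either direction by edgeR, without Flox replicate 4 or without WT replicate 2.

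**Figure D5:**
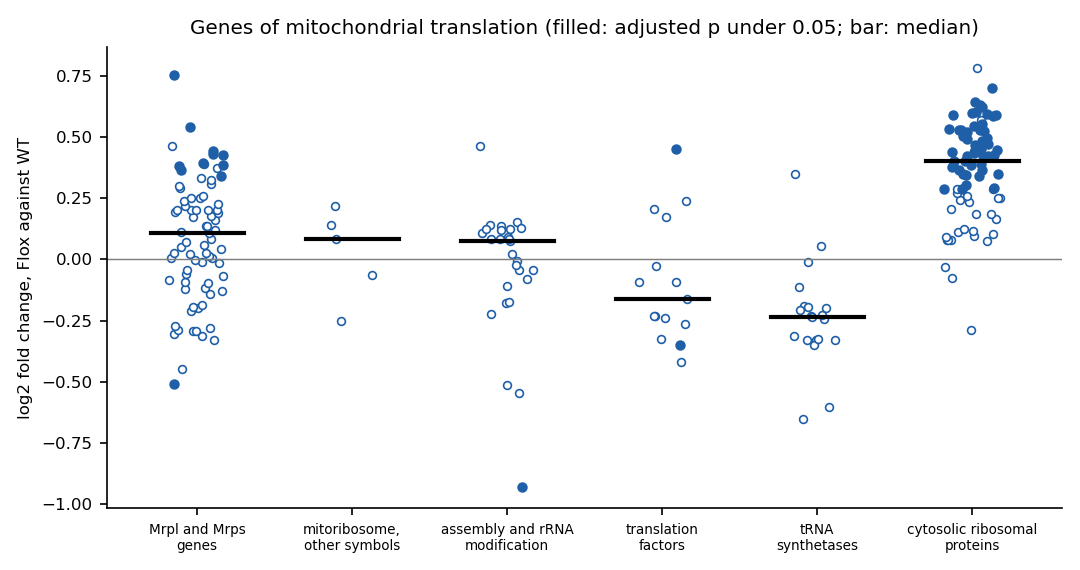
Log2 fold change (Flox against WT) of each gene in the Mrpl and Mrps set, in 4 other lists of mitochondrial translation and in the cytosolic ribosomal proteins, with filled points for an adjusted p under 0.05 and bars at the medians. The medians are 0.11, 0.08, 0.07, -0.16, -0.23 and 0.40 from left to right.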

How the data were processed

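Libraries were poly(A)-selected, without strand, from BAC-TRAP RNA. The deposited table holds raw read counts per gene, which the authors made by trimming, STAR alignment and HTSeq counting. The study's methods state GRCm38 with GENCODE M24, while the submitters' processing notes list GRCm39, Trim Galore 0.6.6, STAR 2.7.9a and HTSeq 0.11.3, so no gene coordinates from the counts are given. Of each library's reads, 5.62% to 5.78% overlapped more than 1 gene and 3.60% to 4.23% aligned to more than 1 place, and these are in no gene's count. Symbols and transcript lengths came from GENCODE M21 (97.0% of IDs matched) and promoters from RefSeq.

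Counts of 29407 genes were fitted with DESeq2 1.42.0 (R 4.3.3, Wald test, two-sided, Benjamini-Hochberg over all genes), the tool of the study. Normalized counts are counts divided by DESeq2 size factors. edgeR 4.0.16 and trends on transcript length, coding length or GC (loess, span 0.4) were alternatives. The DESeq2 fit, edgeR, the replicate block and the transcript length trend were run on simulated data that held no length trend. The coding length and GC trends were not run on them. An exact permutation test of 3 against 2 libraries cannot go below 0.1, so none was used. The length of a gene is that of its representative M21 transcript, picked by annotation rank, with the longest taken among transcripts of equal rank. The set and lists were chosen with earlier results of these data known. Genes named were Esrrg, members past the test, the 4 largest differences per direction and 4 highest levels per kb, members under 10 counts, Mrps18 paralogs, list genes past the test or the largest of a list, and cytosolic examples. Of the genes listed, Mtrfr was not matched.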

Additional observations from a re-analysis of the deposited data

How the results depend on the processing

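The direction of the 11 calls was the same in all 14 other settings, and the median over the mitoribosomal genes stayed positive, between 0.03 and 0.15. In each of the 11 genes both Flox libraries lay outside the WT libraries, so leaving out a library could hardly change the direction. The same direction in those settings is therefore not separate evidence. The counts of calls did not hold. For mitoribosomal genes higher and lower, the reported 10 and 1 stood beside 4.20% and 4.05% of all genes. The counts were 1 and 3 with the coding length trend removed, which was chosen after seeing the data (3.57% and 3.54%). With the transcript length trend removed they were 1 and 6 (3.24% and 3.09%). By edgeR they were 0 and 0 (0.884% and 0.535%), and without independent filtering 6 and 1 (1.59% and 1.47%). Without WT replicate 2 they were 0 and 0 (1.26% and 0.893%). Without WT replicate 3 they were 1 (Mrps18c) and 0 (2.13% and 1.91%), and without WT replicate 4 they were 10 and 1 (4.36% and 4.50%). Fits without a Flox replicate left 1 Flox library and are not counted here. With the replicate number as a block they were 1 (Mrps18c) and 0, beside 1.88% and 2.17% of all genes. With the block and the transcript length trend together they were 0 and 2 (0.850% and 1.14%). Same-numbered WT and Flox libraries deviated together only weakly (r = 0.0924 for number 2 and 0.089 for number 4). The deviations of the 2 Flox libraries from their mean mirror each other, so these values are not separate evidence about pairing. With 2 such pairs the numbers were not taken to pair the samples.

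The other lists of mitochondrial translation had 1 higher and 2 lower as reported. The values were 0 and 4 with the transcript length trend removed, 0 and 0 by edgeR, and 0 and 1 without independent filtering. They were 1 and 1 with the coding length trend removed and with the replicate block, alone or with the transcript length trend. With the coding length trend removed, the gene higher was Tsfm (0.46, adjusted p = 0.0241). With a filter on low counts they were 1 and 4 (4.59% and 4.30% of all genes). The shares of all genes for the other settings are those given above. Leaving out single libraries gave 0 to 1 higher and 0 to 3 lower. With the block, the gene called higher was Lars2, a tRNA synthetase named after its values were seen. It had 18442.4, 22200.2 and 12629.4 counts in WT and 27537.7 and 17640.5 in Flox, so the groups overlapped. These counts lay far above the median of the synthetase list (344.3). Its log2 fold change was 0.53 (adjusted p = 5.3e-04) with the block, against 0.35 (adjusted p = 0.691) without the block. That call rests on replicate numbers that were not taken to pair the samples. The cytosolic median of 0.40 was 0.27 and 0.20 with the coding and transcript length trends removed, 0.25 with block and transcript length, and 0.35 to 0.44 without single libraries. Mrps21 turned negative with TMM library sizes (-0.0031), the coding length trend (-0.20) or the transcript length trend (-0.30) removed, block and transcript length (-0.27), and without Flox replicate 4 (-0.0029) or WT replicate 2 (-0.0531), with 0.0356 as the highest value without a single library. The causes were not tested.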

Other observations

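The annotation also holds processed pseudogenes of the set, which are not protein-coding and were left out of it. Mrpl23-ps1 had mean normalized counts of 35.6 (WT) and 48.8 (Flox), a log2 fold change of 0.45 (SE 0.39, adjusted p = 0.592 in DESeq2), beside 1244.0 and 1626.0 mean counts of Mrpl23. Mrpl48-ps, Mrps36-ps1 and Mrps36-ps2 had means under 15 counts in both groups, and Mrps36-ps3 had no reads. Reads that fit a gene and its copy equally well were not counted.

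Neighbouring genes that share bases with members had values of their own. Tcp1, a chaperonin subunit that shares 141 bases with Mrpl18 on the other strand, fell (log2 fold change -0.40, SE 0.13, adjusted p = 0.033), while Mrpl18 was level at 0.0042. Wdfy1, which shares 126 bases with Mrpl44, fell (-0.66, SE 0.14, adjusted p = 2.3e-04), while Mrpl44 had 0.31 (SE 0.13, adjusted p = 0.118). These neighbours were singled out after their values were seen. Among the members themselves, Mrpl46 and Mrps11 share 173 bases on opposite strands, with log2 fold changes of -0.12 and 0.04.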
